A study of Mus musculus with 12 samples.

Results

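The replication-dependent histone genes were followed across sorted mouse regulatory T cells (Tregs), with or without CD25 (the interleukin-2 receptor's alpha chain). The members were every row of the deposited count table whose symbol begins with Hist, a cluster number and h: 68 of the 24421 rows, made of 6 H1, 18 H2a, 19 H2b, 12 H3 and 13 H4 genes. Of these, 54 lie in the Hist1 cluster on chromosome 13, 10 in Hist2 on chromosome 3, 3 in Hist3 on chromosome 11 and 1, Hist4h4, on chromosome 6. Hist3h2bb-ps, counted here among the H2b genes, is annotated as a processed pseudogene. The bulk RNA-seq data hold 12 libraries in 4 groups of 3: effector Tregs without CD25 (KO eTreg), effector Tregs with CD25 (WT eTreg), central Tregs without CD25 (KO cTreg) and central Tregs with CD25 (WT cTreg). Effector and central cells were separated by flow cytometry on a surface marker, and KO cells were in addition gated as CD25-low. All groups carry the tamoxifen-inducible Foxp3eGFPERT2 allele and the R26tomato reporter, and all received 2 mg/kg tamoxifen intraperitoneally for 5 days. Tissue was taken 10 days after induction, and each library holds spleen and lymph node cells pooled from 2 to 3 mice, so mice within a library cannot be separated. The genotype label runs the other way, naming CD25FL/FL for the libraries whose titles and cell types say WT and CD25WT/WT for those that say KO. Titles and cell types were followed, and the level of the targeted gene sided with them.

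Replication-dependent histone genes supply the proteins that package newly copied DNA: H2a, H2b, H3 and H4 form the nucleosome core, and H1, the linker histone, binds where DNA enters and leaves it. Their transcripts rise in S phase and are the known exception among animal messenger RNAs in ending not in a poly(A) tail but in a conserved stem-loop, bound by the stem-loop binding protein Slbp. A few of these genes can in addition be read through into a downstream polyadenylation signal, and such transcripts are known from cells that have left the cycle. The libraries were made from total RNA after depletion of ribosomal RNA, a preparation that does not select for poly(A).

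The stem-loop of 5 members is shown because it marks the 3' end by which these transcripts differ from other messenger RNAs, and because the H4 genes carry forms of it that the other classes do not. Each line is read 5' to 3' on the strand of the gene from the genome build GRCm38 (mm10). Capitals mark the 16-base stem-loop and lower case its 5 flanking bases on each side.
Hist1h1c, chr13:23739507-23739532, plus strand: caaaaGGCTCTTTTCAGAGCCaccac
Hist1h2ao, chr13:21810893-21810918, plus strand: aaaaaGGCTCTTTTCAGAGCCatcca
Hist1h3e, chr13:23561898-23561923, minus strand: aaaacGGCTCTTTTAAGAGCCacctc
Hist1h4d, chr13:23581945-23581970, plus strand: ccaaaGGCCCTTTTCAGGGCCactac
Hist2h2ac, chr3:96220413-96220438, minus strand: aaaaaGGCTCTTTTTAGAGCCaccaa
A stem-loop was found in the gene model of 46 members. The form of Hist1h1c and Hist1h2ao was shared by 26 of them, that of Hist1h4d by 7 members, all of class H4, and that of Hist1h3e by 6. The form in Hist2h2ac was found in no other member.

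Promoters of 3 members are shown because the first and second belong to divergent pairs described further on, and the third lacks the CCAAT motif that the other classes share. Each line gives 250 bases before and 50 bases after the RefSeq start on the strand of the gene (GRCm38.p6). Capitals mark matches on either strand to CCAAT, bound by NF-Y, to TATAAA, the TATA box, and to ATTTGCAT, the octamer bound by Oct-1.
Hist2h2ac, chr3:96220831-96221130, minus strand: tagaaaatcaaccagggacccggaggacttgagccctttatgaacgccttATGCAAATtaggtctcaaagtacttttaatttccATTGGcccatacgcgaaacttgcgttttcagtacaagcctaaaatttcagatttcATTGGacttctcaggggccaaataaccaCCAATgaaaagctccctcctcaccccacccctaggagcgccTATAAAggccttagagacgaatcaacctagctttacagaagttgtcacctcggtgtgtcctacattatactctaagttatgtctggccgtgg
Hist1h2bq, chr13:21810150-21810449, minus strand: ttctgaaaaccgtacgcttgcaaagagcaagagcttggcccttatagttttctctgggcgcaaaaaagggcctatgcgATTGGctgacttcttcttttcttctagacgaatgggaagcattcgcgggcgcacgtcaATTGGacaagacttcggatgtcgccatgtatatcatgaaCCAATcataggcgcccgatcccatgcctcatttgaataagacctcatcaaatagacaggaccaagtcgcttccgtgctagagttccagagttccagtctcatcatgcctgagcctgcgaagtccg
Hist1h4h, chr13:23530794-23531093, plus strand: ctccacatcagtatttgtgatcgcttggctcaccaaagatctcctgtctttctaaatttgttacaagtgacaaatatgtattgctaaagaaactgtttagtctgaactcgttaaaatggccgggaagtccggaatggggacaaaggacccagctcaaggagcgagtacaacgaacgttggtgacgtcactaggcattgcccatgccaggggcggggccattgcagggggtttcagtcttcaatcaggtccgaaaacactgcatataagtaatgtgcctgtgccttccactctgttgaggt
Promoters were matched for 62 of 68 members. CCAAT, on either strand, was in 53 of them (85.5%), against 37.9% of all 27025 promoters of the same length. It was in all 50 matched promoters of classes H1, H2a, H2b and H3, but in only 3 of the 12 of class H4. TATAAA was in 56.5% of the members' promoters, against 14.2% of all promoters. ATTTGCAT was in 21.0%, against 1.75% of all promoters, and those 13 were 7 H2a and 6 H2b genes. Only the first listed promoter of a gene was counted, and a further promoter of Hist1h2be also holds ATTTGCAT. Windows of divergent partners overlap, so a single match can count for both genes, as for Hist1h2ae and Hist1h2bg. The 3 motifs were searched as written on both strands, and none contains another. A match describes the letters of a window and is not a binding site.

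The libraries held 14567313 to 19121577 counts, of which the members took 0.0621% to 0.391%. Il2ra, the targeted gene, had 125, 116 and 132 CPM (counts scaled by library size and TMM, throughout) in KO eTreg, 464, 562 and 542 in WT eTreg, 122, 112 and 113 in KO cTreg and 576, 523 and 579.8 in WT cTreg. Treg markers summed to 2694 to 4262 CPM, but single markers differed between the groups in either direction. Ikzf2 had group means of 2180, 1875, 776 and 588 CPM in KO eTreg, WT eTreg, KO cTreg and WT cTreg. Foxp3 had 176, 244, 227 and 393 CPM in the same order. The summed Klrg1 and Icos level was 325 to 357 CPM in KO cTreg, against 74.9 to 117 CPM in WT cTreg. Markers of other cells were low in every group: B cell markers summed to 7.63 to 15.3 CPM, myeloid or dendritic markers to 5.08 to 15.6 CPM, CD8 T or NK cell markers to 5.95 to 16.9 CPM and erythroid markers to 0.776 to 14.96 CPM, while the 52.6 to 67.2 CPM of the plasma cell list came almost wholly from Xbp1. The 16.9 CPM was that of KO eTreg 2, where Klrb1c alone had 11.4 CPM, against at most 1.85 CPM in any other library.

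Of the 68 members, 65 entered the test. Hist1h1t, Hist1h2aa and Hist1h2ba, which are known from testis, did not, and Hist1h2aa had no count in any library, which allows up to 3 counts or 0.138 to 0.241 CPM by library, for counting error only. A mean of at least 100 counts a library was reached by 48 members. The 10 members with the highest mean level carried 46.3% to 63.7% of the members' CPM in a library. The highest, Hist1h1c, carried 12.9% to 24.2%. Per kilobase of RefSeq transcript, over the 63 members with a usable length, Hist1h1c stood highest by the mean over all 12 libraries, at a level of 394 CPM per kb. It was followed by Hist1h4d at 320.2, Hist1h4c at 153, Hist1h1d at 127 and Hist1h1e at 124 CPM per kb. Hist1h1c and Hist1h4d were first and second in all 4 groups, but the order of the other 3 changed: Hist1h1e lay above Hist1h1d in KO eTreg (83.6 against 70.7 CPM per kb) and in WT eTreg (72.3 against 56.1), and above Hist1h4c in WT eTreg (70.1). The annotation behind the counts is not known, and the GENCODE models of these genes are longer than RefSeq's. They span 1560 against 725 bases for Hist1h1c, 1138 against 402 for Hist1h4d and 820 against 375 for Hist1h4c. For Hist1h1d they span 7425 against 776 bases, and for Hist1h1e 1930 against 782. If reads were counted over the longer models, the levels per kb and their order could differ. Some copies share their reads: Hist1h2ao and Hist1h2ap, Hist1h2bq and Hist1h2br, and Hist2h3c1 and Hist2h3c2 had identical counts in 12 of 12 libraries, and Hist2h2aa1 and Hist2h2aa2 in 11 of 12. Values for these pairs cannot be assigned to either gene, and Hist1h1e and Hist1h2be overlap in their exons.

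The members together were lowest in effector cells and highest in central cells without CD25. Their summed level was 631, 1030.2 and 739 CPM in KO eTreg, 548, 813 and 666 CPM in WT eTreg, 2280.4, 4244 and 3410.3 CPM in KO cTreg and 2224, 1556 and 1687 CPM in WT cTreg. Each effector library lay below each central library, KO cTreg libraries lay above all WT cTreg libraries, though the lowest KO library by little, and the effector groups overlapped. The group means were 800 ± 206, 676 ± 133, 3312 ± 985 and 1822 ± 354 CPM in the same order (SD, n = 3 each). These ratios of means come to 1.82 for KO over WT in cTreg and 1.18 in eTreg, and to 0.371 for eTreg over cTreg in WT and 0.242 in KO. In bulk libraries, fewer cells making histone RNA and less histone RNA per cell cannot be told apart.

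**Figure D1:**
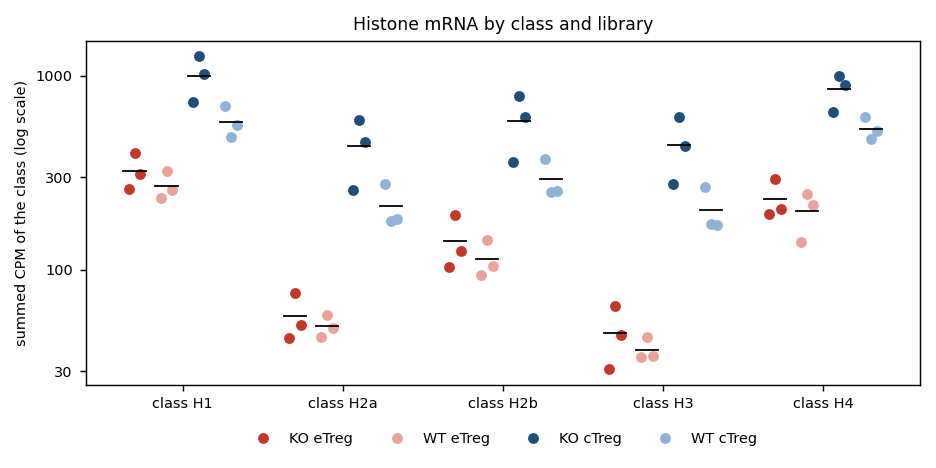
Summed TMM-scaled CPM of each histone class, on a log axis, in each library (points), with a short line at the mean of the 3 libraries of its group. In each class all effector libraries lie below all central libraries, and H3 spans from 30.9 CPM in a KO eTreg library to 610 CPM in a KO cTreg library.

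The classes did not fall in the same proportion between effector and central cells. H3, summed over 12 genes, had 30.9, 65.3 and 46.3 CPM in KO eTreg, 35.8, 44.9 and 35.8 CPM in WT eTreg, 278, 610 and 434 CPM in KO cTreg and 268, 172 and 171 CPM in WT cTreg. H1, summed over 6 genes, had 259, 401 and 311 CPM in KO eTreg, 234, 322 and 259 CPM in WT eTreg, 732, 1257 and 1015 CPM in KO cTreg and 694, 486 and 560 CPM in WT cTreg. The effector libraries lay below the central libraries for both classes. The log2 ratio of group means, eTreg over cTreg in WT, was -2.39 for H3 and -2.05 for H2a, against -1.36 for H2b, -1.42 for H4 and -1.09 for H1. In KO it was -3.21 for H3 and -2.91 for H2a, against -2.07 for H2b, -1.88 for H4 and -1.63 for H1. The share of the members' CPM held by H2a and H3 together was 13.0% ± 0.927 in KO eTreg, 13.5% ± 1.12 in WT eTreg, 25.9% ± 2.35 in KO cTreg and 22.6% ± 1.80 in WT cTreg (SD, n = 3 each). The share held by H1 was 40.7% in KO eTreg, 40.4% in WT eTreg, 30.5% in KO cTreg and 31.9% in WT cTreg (n = 3 each). In both shares the effector libraries did not overlap with the central ones, while the genotypes overlapped within each gate. No test is attached to these sums over members.

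**Figure D2:**
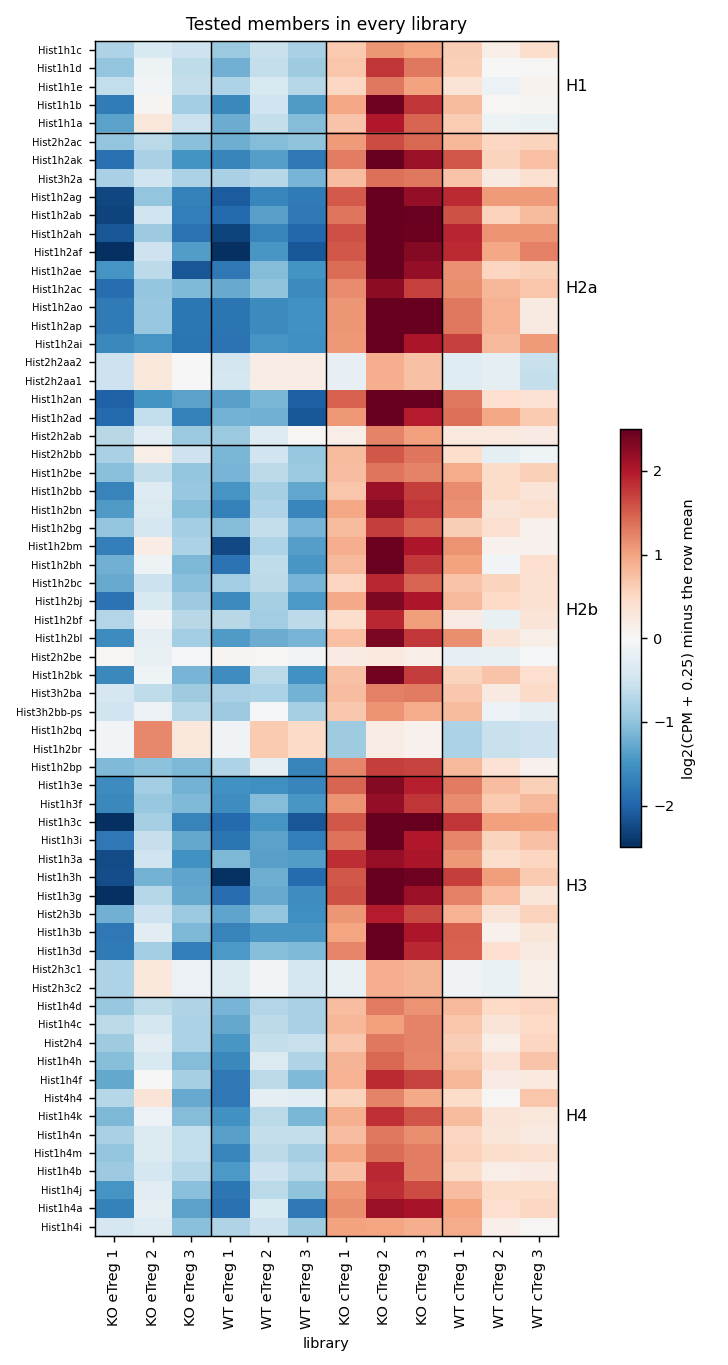
Level of each tested member in each library, as log2(CPM + 0.25) minus the mean of its row (red above, blue below the row mean), with members as rows by class and libraries as columns by group. Most rows are blue in the effector columns and red in the central columns, H2a and H3 rows most deeply, while Hist1h2bq and Hist1h2br run the other way.

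The members with the highest mean CPM over the 12 libraries show the same order. Among the linker histones, Hist1h1c had 148, 195 and 176 CPM in KO eTreg, 132, 173 and 145 CPM in WT eTreg, 396, 546 and 499 CPM in KO cTreg and 388, 284 and 343 CPM in WT cTreg. Hist1h1d had 40.4, 72.8 and 51.4 CPM in KO eTreg, 34.5, 53.1 and 43.0 CPM in WT eTreg, 129, 277 and 200.2 CPM in KO cTreg and 121, 80.2 and 81.8 CPM in WT cTreg. Hist1h1e had 56.5, 82.8 and 57.0 CPM in KO eTreg, 50.9, 66.1 and 52.7 CPM in WT eTreg, 125, 216 and 174 CPM in KO cTreg and 110.3, 77.9 and 91.3 CPM in WT cTreg. For these 3 linker genes every KO cTreg library lay above every WT cTreg library, and the effector groups overlapped. Hist1h1b, a further linker histone, had 7.50, 27.4 and 14.2 CPM in KO eTreg, 8.30, 18.3 and 9.62 CPM in WT eTreg, 50.8, 141 and 90.4 CPM in KO cTreg and 45.1, 26.4 and 27.1 CPM in WT cTreg. It varied widely among libraries of a group, and the KO cTreg values again lay above the WT cTreg values.

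Among the core histones, Hist1h4d, the H4 gene with the highest mean CPM in all 4 groups, had 55.5, 69.5 and 63.7 CPM in KO eTreg, 48.2, 65.1 and 61.3 CPM in WT eTreg, 184, 266 and 233 CPM in KO cTreg and 190.1, 152 and 156 CPM in WT cTreg. Its KO cTreg and WT cTreg values overlapped. Hist1h4c had 30.5, 36.5 and 28.2 CPM in KO eTreg, 19.9, 31.2 and 27.7 CPM in WT eTreg, 87.6, 100.1 and 117 CPM in KO cTreg and 79.2, 60.8 and 69.2 CPM in WT cTreg. Hist2h4 had 18.1, 27.5 and 19.4 CPM in KO eTreg, 12.05, 22.2 and 22.7 CPM in WT eTreg, 54.1, 84.5 and 80.0 CPM in KO cTreg and 51.7, 37.6 and 49.1 CPM in WT cTreg. Both of these H4 genes separated KO cTreg from WT cTreg. Hist1h4h had 14.9, 24.1 and 14.7 CPM in KO eTreg, 10.1, 24.3 and 18.6 CPM in WT eTreg, 57.0, 85.4 and 73.5 CPM in KO cTreg and 51.1, 40.4 and 51.4 CPM in WT cTreg. Hist4h4, which lies alone on chromosome 6, had 17.0, 34.8 and 11.5 CPM in KO eTreg, 7.93, 23.5 and 23.4 CPM in WT eTreg, 41.2, 66.7 and 53.9 CPM in KO cTreg and 38.6, 28.5 and 45.5 CPM in WT cTreg. Its 2 cTreg groups overlapped, and its spread within the effector groups was wide.

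Each of the next 3 genes has the highest CPM of its class by the mean over all 12 libraries, not in every group. Hist2h2bb, of the H2b genes, had 22.1, 43.1 and 27.0 CPM in KO eTreg, 17.4, 27.3 and 20.03 CPM in WT eTreg, 67.4, 115 and 98.7 CPM in KO cTreg and 52.8, 32.9 and 35.9 CPM in WT cTreg. Hist1h3e, of the H3 genes, had 8.95, 14.9 and 11.8 CPM in KO eTreg, 9.32, 9.18 and 8.43 CPM in WT eTreg, 75.0, 134 and 105 CPM in KO cTreg and 67.1, 46.4 and 41.0 CPM in WT cTreg. Hist2h2ac, of the H2a genes, had 11.4, 14.3 and 11.03 CPM in KO eTreg, 9.69, 10.7 and 11.3 CPM in WT eTreg, 48.0, 71.1 and 62.0 CPM in KO cTreg and 40.9, 32.7 and 33.7 CPM in WT cTreg. All 3 separated KO cTreg from WT cTreg without overlap. Hist3h2a, the H2a gene of the small Hist3 cluster, had 11.4, 14.1 and 11.4 CPM in KO eTreg, 11.3, 12.1 and 8.83 CPM in WT eTreg, 34.5, 52.4 and 50.1 CPM in KO cTreg and 33.0, 23.5 and 26.4 CPM in WT cTreg. It separated the cTreg groups too. By group means, Hist1h2be was above Hist2h2bb in WT cTreg (48.5 against 40.5 CPM) and Hist1h3f above Hist1h3e in WT eTreg (9.14 against 8.98 CPM). Hist3h2a was above Hist2h2ac in KO eTreg (12.3 against 12.2 CPM) and WT eTreg (10.7 against 10.6 CPM), and Hist1h2ak was above it in KO cTreg (66.9 against 60.4 CPM). These CPM are not divided by gene length.

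Central cells without CD25 were compared with central cells with CD25. Of the 65 tested members, 30 were called higher and 0 lower in KO cTreg by edgeR's quasi-likelihood test at an adjusted p under 0.05, while 14.8% of all tested genes were called higher and 12.6% lower. All 65 estimates were above 0, with a median log2 change of 1.01 (range 0.36 to 1.87) against 0.00 over all genes. By class, 3 of 5 H1, 9 of 17 H2a, 7 of 18 H2b, 6 of 12 H3 and 5 of 13 H4 genes rose. The 9 H2a genes include Hist1h2ao with Hist1h2ap and Hist2h2aa1 with Hist2h2aa2, pairs with the same or nearly the same counts. With 1 row of each such pair, 28 of the calls remained. In 35 members every KO cTreg library lay above every WT cTreg library, which held for 20.9% of all tested genes. The count rests on few libraries: it was 7 without KO cTreg 2, 12 without KO cTreg 3, 8 without WT cTreg 2, 6 without WT cTreg 3 and 56 without KO cTreg 1. It was 14 with the 6 cTreg libraries fitted alone and 54 with limma-voom. The share of all genes called under each alternative is not given, so these shifts cannot be read as particular to the members. Hist1h3a, Hist2h2ac, Hist2h3b and Hist3h2a were called in all alternatives run. Beside the members, both effector-gate markers rose in KO cTreg, Mki67 rose, and the myeloid or dendritic marker sum was 8.45 to 15.6 CPM in KO cTreg against 6.99 to 9.07 CPM in WT cTreg; their part in the result was not tested.

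The sizes of these rises ran from Hist2h2be at the low end to rarer H2a and H3 genes at the high end. Hist1h2an, an H2a gene, had 0.289, 0.525 and 0.610 CPM in KO eTreg, 0.606, 0.738 and 0.283 CPM in WT eTreg, 5.78, 15.1 and 17.0 CPM in KO cTreg and 5.21, 2.67 and 2.54 CPM in WT cTreg. It rose by a log2 of 1.87 ± 0.399 (SE, adjusted p = 0.00444), with no overlap between the cTreg groups. Its effector values lie close to the level of 3 counts given above. Hist1h2ao and its identical-count partner Hist1h2ap had 0.577, 1.21 and 0.554 CPM in KO eTreg, 0.545, 0.692 and 0.735 CPM in WT eTreg, 5.85, 25.2 and 19.3 CPM in KO cTreg and 6.82, 4.90 and 3.07 CPM in WT cTreg. They rose by 1.78 ± 0.486 (adjusted p = 0.0229), although KO cTreg 1 lay within the WT range. Hist1h3g, an H3 gene, had 0.520, 2.84 and 1.83 CPM in KO eTreg, 1.09, 1.84 and 1.47 CPM in WT eTreg, 14.97, 51.1 and 22.0 CPM in KO cTreg and 11.7, 8.22 and 5.92 CPM in WT cTreg. It rose by 1.78 ± 0.524 (adjusted p = 0.0353), with all KO cTreg libraries above the WT ones.

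Among the abundant members, Hist2h2ac rose by 0.76 ± 0.137 (adjusted p = 0.00121), Hist3h2a by 0.73 ± 0.174 (adjusted p = 0.00890), Hist1h3e by 1.03 ± 0.2503 (adjusted p = 0.0154) and Hist2h2bb by 1.22 ± 0.316 (adjusted p = 0.0215). Hist1h1e rose by 0.89 ± 0.241 (adjusted p = 0.0261), Hist1h1d by 1.11 ± 0.331 (adjusted p = 0.0388), Hist1h4c by 0.54 ± 0.168 (adjusted p = 0.0375) and Hist1h1c by 0.51 ± 0.165 (adjusted p = 0.0490). Of these, only Hist2h2ac and Hist3h2a kept the call in all alternatives run. A further 4 abundant members did not pass: Hist1h4d with 0.46 ± 0.159 (adjusted p = 0.0615), Hist1h1b with 1.53 ± 0.522 (adjusted p = 0.0629), Hist2h4 with 0.66 ± 0.267 (adjusted p = 0.103) and Hist1h4h with 0.60 ± 0.297 (adjusted p = 0.179). Hist4h4 did not pass either, with 0.53 ± 0.465 (adjusted p = 0.457).

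**Figure D3:**
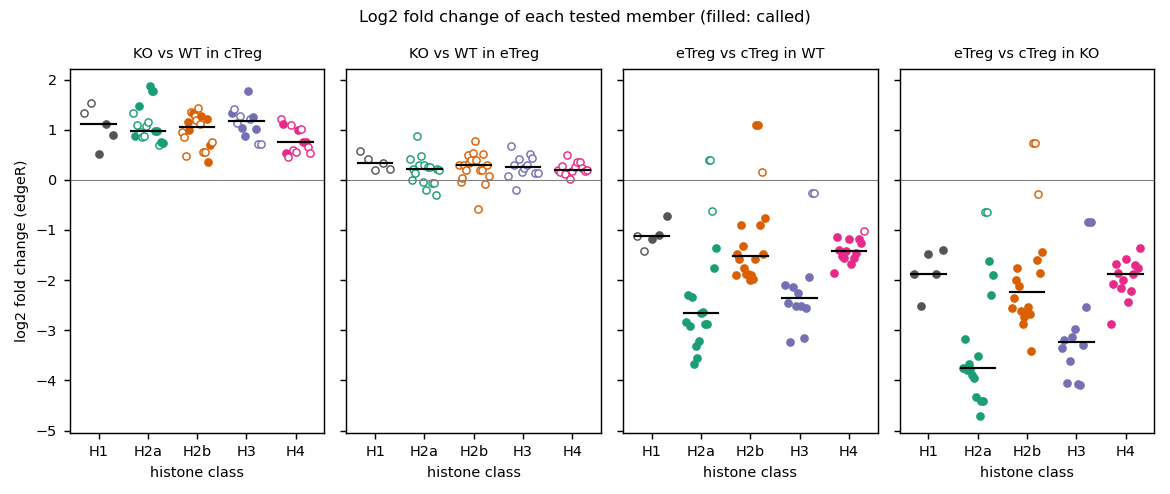
Log2 fold change of each tested member in the 4 comparisons, by class on the x axis; filled points passed an adjusted p under 0.05 in edgeR's quasi-likelihood test and short lines mark class medians. KO over WT in cTreg lies above 0 for all 65 members, and the effector over central comparisons lie below 0 for 60 members in WT and 63 in KO.

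Effector cells without CD25 were compared with effector cells with CD25. No member was called in either direction, whereas 6.65% of all tested genes were. No member had an unadjusted p under 0.05, DESeq2 and limma-voom called 0, and in no member did all KO eTreg libraries lie above all WT eTreg libraries, which held for 13.5% of all genes. The median log2 change was 0.23, with 55 of 65 estimates above 0, and -0.07 without KO eTreg 2. Libraries with the same number in the 2 effector groups deviated together, and the ratio of the members' sums, KO over WT, was 1.15, 1.27 and 1.11 for numbers 1, 2 and 3. By class it was below 1 for H2a (0.993) and H3 (0.863) at number 1 and for H4 (0.946) at number 3, and above 1 otherwise. With the number as a blocking term and only the 6 effector libraries, 8 of 64 members rose and 0 fell, against 7.54% of all genes called higher. These 8 were Hist1h1c, Hist1h1d, Hist1h1e, Hist1h2bh, Hist1h2bm, Hist1h2bn, Hist1h4f and Hist2h2bb, the last by 0.49 ± 0.0767 (SE, adjusted p = 5.56e-04). In the same fit 5 of 20 G2 and mitosis genes rose.

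Effector cells were compared with central cells within WT. Of the 65 members, 54 fell and 2 rose in eTreg, when 35.8% of all tested genes fell and 35.7% rose. The median log2 change was -1.57, against 0.00 over all genes. By class the median was -2.65 for H2a, -2.36 for H3, -1.52 for H2b, -1.41 for H4 and -1.11 for H1. All eTreg libraries lay below all cTreg libraries in 57 members, which held for 37.6% of all genes. The largest falls were in H2a and H3 genes of the Hist1 cluster, and the 9 members not called included Hist1h1a, Hist1h1b, Hist4h4 and 6 genes of the Hist2 cluster.

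Hist1h2af had 0.577, 3.05 and 1.55 CPM in KO eTreg, 0.424, 1.48 and 0.849 CPM in WT eTreg, 13.6, 35.1 and 23.0 CPM in KO cTreg and 16.9, 9.01 and 11.1 CPM in WT cTreg. It fell in WT by a log2 of -3.68 ± 0.628 (SE, adjusted p = 5.64e-04), with wide gaps between the gates. Hist1h2ah had 1.27, 3.31 and 1.61 CPM in KO eTreg, 1.09, 1.84 and 1.47 CPM in WT eTreg, 20.01, 40.7 and 36.3 CPM in KO cTreg and 24.8, 14.2 and 14.3 CPM in WT cTreg. It fell by -3.56 ± 0.451 (adjusted p = 5.98e-05). Hist1h2ag had 1.39, 3.78 and 2.22 CPM in KO eTreg, 1.63, 2.31 and 2.09 CPM in WT eTreg, 22.6, 51.7 and 36.1 CPM in KO cTreg and 28.7, 16.4 and 16.3 CPM in WT cTreg. It fell by -3.32 ± 0.461 (adjusted p = 1.36e-04), and none of these H2a genes had overlapping gates. Hist1h3c had 1.27, 5.25 and 2.83 CPM in KO eTreg, 2.30, 3.27 and 1.98 CPM in WT eTreg, 28.4, 73.5 and 55.6 CPM in KO cTreg and 33.4, 19.6 and 19.4 CPM in WT cTreg. It fell by -3.23 ± 0.551 (adjusted p = 6.64e-04).

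Among the abundant members, Hist1h3e fell by -2.52 ± 0.297 (adjusted p = 4.80e-05), Hist2h2ac by -1.75 ± 0.154 (adjusted p = 3.01e-07) and Hist1h4d by -1.51 ± 0.167 (adjusted p = 2.10e-05). Hist1h4c fell by -1.40 ± 0.179, Hist1h4h by -1.41 ± 0.320, Hist3h2a by -1.36 ± 0.190, Hist2h4 by -1.27 ± 0.286 and Hist1h1c by -1.17 ± 0.169. Hist1h1d at -1.11 ± 0.348, Hist2h2bb at -0.90 ± 0.337 and Hist1h1e at -0.72 ± 0.249 passed here but not in all alternatives. Hist1h1b, at -1.41 ± 0.584 (adjusted p = 0.0565), did not pass.

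The only rises in WT eTreg were those of Hist1h2bq and Hist1h2br, which share their counts. They had 2.94, 7.40 and 3.82 CPM in KO eTreg, 2.91, 5.03 and 4.41 CPM in WT eTreg, 1.56, 3.54 and 3.36 CPM in KO cTreg and 1.68, 2.02 and 2.07 CPM in WT cTreg. All WT eTreg libraries lay above all WT cTreg libraries, while the KO groups overlapped. The log2 change was 1.10 ± 0.381 in WT (adjusted p = 0.0186) and 0.73 ± 0.351 in KO (adjusted p = 0.0753). The call in WT was lost without WT eTreg 2, without WT cTreg 1, and under an offset for length and GC content, where the log2 changes were 0.79 for Hist1h2bq (adjusted p = 0.0755) and 0.71 for Hist1h2br (adjusted p = 0.110).

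The same comparison within KO gave 60 members lower and 0 higher in eTreg, with 35.8% of all tested genes lower and 36.1% higher. The median log2 change was -2.44, and by class -3.76 for H2a, -3.24 for H3, -2.24 for H2b, -1.88 for H4 and -1.88 for H1. In 59 members all KO eTreg libraries lay below all KO cTreg libraries, as in 37.1% of all genes. The largest falls, using the values given above, were those of Hist1h2an at -4.71 ± 0.506 (adjusted p = 4.12e-06) and of Hist1h2ao and Hist1h2ap at -4.41 ± 0.598 (adjusted p = 8.43e-05). Hist1h2ai, an H2a gene, had 0.693, 0.788 and 0.554 CPM in KO eTreg, 0.545, 0.784 and 0.735 CPM in WT eTreg, 5.85, 23.5 and 11.5 CPM in KO cTreg and 9.06, 4.76 and 5.76 CPM in WT cTreg. It fell by -4.32 ± 0.550 (adjusted p = 3.81e-05), with no overlap of the gates. Hist1h1c fell by -1.47 ± 0.169, Hist1h4d by -1.86 ± 0.166 and Hist1h3e by -3.14 ± 0.282. The 5 members not called were Hist1h2bq, Hist1h2br, Hist2h2aa1, Hist2h2aa2 and Hist2h2be. The WT and KO comparisons have no library in common. In both, 54 members fell, which is all 54 that fell in WT and 54 of the 60 that fell in KO. Of all tested genes 35.8% fell in each comparison, but the share that fell in both was not counted.

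The difference between the effect of CD25 loss in the 2 gates was tested as an interaction, the KO over WT log2 change in eTreg minus that in cTreg. No member was called, against 3.8% of all tested genes. At an unadjusted p under 0.05 there were 8 members, and DESeq2 called 1. All 65 estimates were below 0, with a median of -0.72, and the lowest adjusted p was 0.141. Without KO cTreg 1, 7 members were called lower, and 1 was called without KO eTreg 2 or without WT eTreg 3. The share of all genes called in these ways is not given here. A difference between the gates was thus not shown for any member.

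Many H2a and H2b genes lie head to head and share the stretch between their starts. Among 14 divergent pairs with gaps of 172 to 659 bases, 12 were tested pairs of an H2a with an H2b gene. These include the pair of Hist3h2a with the pseudogene Hist3h2bb-ps. In the eTreg over cTreg comparison the H2a gene had the lower log2 change in 12 of 12 pairs in both genotypes, with a median difference of -1.33 in WT (range -3.98 to -0.59) and -1.43 in KO. In KO over WT the H2a gene was the lower in 5 of 12 pairs in either gate, with median differences of 0.03 in cTreg and 0.04 in eTreg. The 12 pairs include the shared-count copies, so they are not 12 independent pairs. In most of the pairs both genes were called lower in eTreg over cTreg in both genotypes, as were Hist1h2ag, at -3.32 in WT, and Hist1h2bj, at -1.87. The exceptions were the pairs of Hist2h2be, Hist1h2bq and Hist1h2br, in which the H2b gene was not called lower. Among these exceptions, the starts of Hist2h2ac and Hist2h2be lie 238 bases apart within the window printed above (chr3:96220881-96221118). Hist2h2be, an H2b gene, had 7.22, 6.14 and 6.87 CPM in KO eTreg, 7.45, 7.19 and 6.68 CPM in WT eTreg, 8.15, 8.35 and 7.91 CPM in KO cTreg and 6.10, 6.20 and 6.76 CPM in WT cTreg. Its eTreg over cTreg log2 change in WT was 0.16 ± 0.128 (adjusted p = 0.267), beside -1.75 for Hist2h2ac, and in KO -0.27 ± 0.124 (adjusted p = 0.0591), beside -2.30. Between genotypes in cTreg it rose by 0.36 ± 0.129 (adjusted p = 0.0484), a call that was lost in 18 of 22 alternatives. The printed Hist1h2bq promoter reaches into the 267-base gap that parts Hist1h2bq, at 1.10 in WT, from Hist1h2ao, at -2.88 ± 0.670 (adjusted p = 0.00320).

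**Figure D4:**
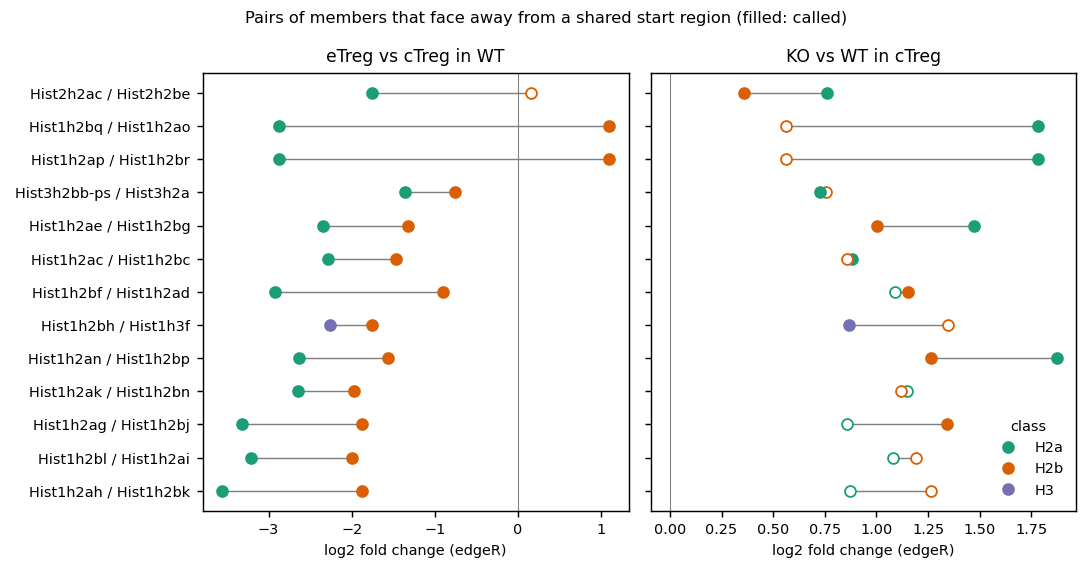
Log2 fold change (x axis) of both genes of each tested divergent pair, joined by a line and coloured by class, for eTreg over cTreg in WT (left) and KO over WT in cTreg (right); filled points were called. In the left panel the H2a gene lies below its H2b partner in 12 of 12 pairs, and in the right panel in 5 of 12.

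Gene models that run past the coding sequence without a match to the stem-loop consensus were found for 4 members: Hist1h2bc, Hist1h2bq, Hist1h2br and Hist2h2be, and in the last 3 the AATAAA polyadenylation signal lies near the model's end. Hist1h2bc, Hist1h2bq and Hist1h2br have spliced transcripts, in which a stem-loop within an intron would be missed. Their eTreg over cTreg log2 changes in WT were -1.47 for Hist1h2bc, 0.16 for Hist2h2be and 1.10 for Hist1h2bq and Hist1h2br, which share their counts, against a median of -1.57 for the 45 tested members with a stem-loop. Hist1h2bc is unlike the other 3: it had 4.21, 7.09 and 4.88 CPM in KO eTreg, 5.57, 6.50 and 4.47 CPM in WT eTreg, 15.1, 39.2 and 28.7 CPM in KO cTreg and 17.2, 15.4 and 13.5 CPM in WT cTreg. It fell by -1.47 ± 0.347 in WT (adjusted p = 0.00352). The other 16 tested members end at or close to the coding sequence in this annotation, and their 3' end cannot be read from it. AATAAA is not particular to models without a stem-loop, as it also lies near the end of some models that have one. Of these, Hist1h1c, Hist1h2ae, Hist1h2be, Hist1h2bp, Hist1h4a, Hist1h4j, Hist2h4, Hist3h2a and Hist3h2ba fell in WT eTreg. Hist2h3c1 and Hist4h4 were not called, and Hist1h1t was not tested.

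Within a group, most members had their highest value in the same library. The library with the highest sum, number 2 in KO eTreg, WT eTreg and KO cTreg and number 1 in WT cTreg, also had the highest value of 62, 53, 61 and 53 of 65 members, against 34.2% to 37.2% of the other genes. The library with the lowest sum had the lowest value of 51 members in KO eTreg, 47 in WT eTreg, 63 in KO cTreg and 33 in WT cTreg. Mki67, a marker of cycling cells, had 126, 305 and 209.8 CPM in KO eTreg, 120.0, 235 and 149 CPM in WT eTreg, 225, 396 and 339 CPM in KO cTreg and 151, 120.2 and 126 CPM in WT cTreg. The order of libraries by the members' sum was that by Mki67 in all 4 groups. Mki67 rose in KO cTreg over WT cTreg by a log2 of 1.27 ± 0.380 (adjusted p = 0.0387), and its eTreg over cTreg change was 0.35 ± 0.379 in WT (adjusted p = 0.434) and -0.58 ± 0.369 in KO (adjusted p = 0.186). The members' sum divided by Mki67 was 3.98 ± 0.915 in KO eTreg, 4.17 ± 0.619 in WT eTreg, 10.3 ± 0.348 in KO cTreg and 13.7 ± 0.929 in WT cTreg (SD, n = 3 each). Each effector library thus had less histone RNA per Mki67 count than each central library.

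**Figure D5:**
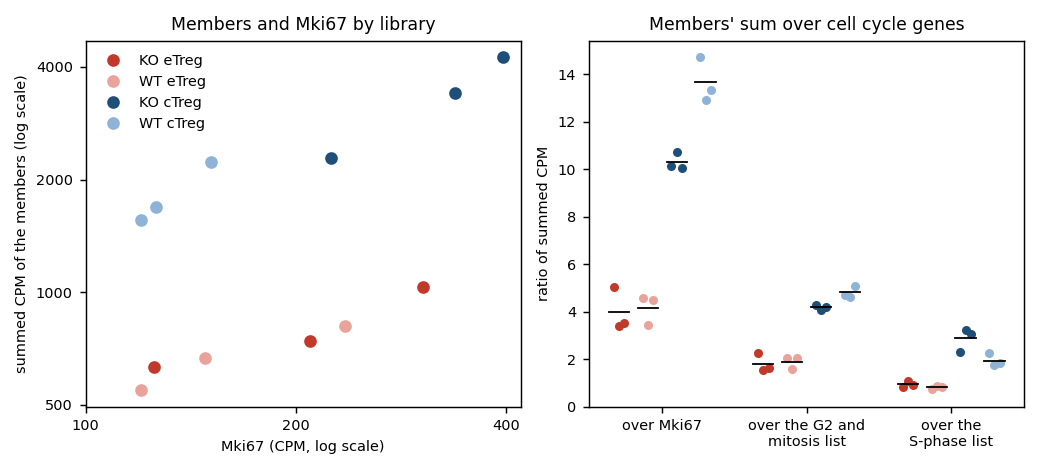
Left, summed member CPM against Mki67 CPM in the 12 libraries, both on log axes; right, the ratio of the members' sum to Mki67, to the G2 and mitosis list and to the S-phase list in each library, with a line at the group mean. The central libraries lie at a higher member sum than effector libraries of similar Mki67, with a ratio of 3.38 to 5.03 in effector libraries against 10.1 to 14.7 in central libraries.

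Other cell-cycle genes were counted by list. Over all tested genes, 14.8% rose and 12.6% fell in KO cTreg over WT cTreg. In eTreg over cTreg, 35.7% of all rose and 35.8% fell in WT, and 36.1% rose and 35.8% fell in KO. Of 30 S-phase and DNA replication genes, 7 rose and 0 fell in KO cTreg over WT cTreg, among them Tyms, thymidylate synthase, by 0.89 ± 0.199 and Ccne2, cyclin E2, by 1.001. In eTreg over cTreg, 5 rose and 10 fell in WT, and 2 rose and 21 fell in KO, and E2f1, an S-phase transcription factor, fell by -1.72 and -1.75. Of 20 G2 and mitosis genes, 4 rose in KO cTreg over WT cTreg, with Ccnb1, cyclin B1, at 1.41 ± 0.444. In eTreg over cTreg, 1 of the 20 fell in WT and 12 fell in KO, of which Ube2c, a mitotic ubiquitin-conjugating enzyme, fell by -1.26 and -2.16. The members' sum per S-phase list CPM was 0.937, 0.811, 2.87 and 1.94 as means of KO eTreg, WT eTreg, KO cTreg and WT cTreg. None of these list genes was called in KO eTreg over WT eTreg without the block, against 6.65% of all tested genes.

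The factors that process histone messenger RNA were called in both directions between the gates. Slbp, which binds the stem-loop, had 51.1, 63.9 and 51.5 CPM in KO eTreg, 49.8, 53.5 and 50.2 CPM in WT eTreg, 39.6, 50.9 and 44.5 CPM in KO cTreg and 35.9, 34.4 and 31.8 CPM in WT cTreg. It rose in eTreg over cTreg by 0.59 ± 0.0985 in WT (adjusted p = 5.86e-05) and by 0.30 ± 0.0952 in KO (adjusted p = 0.00994), and in KO cTreg over WT cTreg by 0.40 ± 0.1001 (adjusted p = 0.00672). Of 17 tested genes of histone RNA processing and decay, 9 rose and 5 fell in eTreg over cTreg in WT, and 8 rose and 4 fell in KO. Over all tested genes, 35.7% rose and 35.8% fell in WT, and 36.1% rose and 35.8% fell in KO. Npat, the coactivator of histone genes, rose by 0.79 in WT and 0.72 in KO, and Upf1, a helicase that takes part in histone RNA decay, fell by -0.88 in both. Of the replication-independent histones, most of which are polyadenylated and made throughout the cycle, 6 of 9 fell and 1 rose in WT eTreg, and 8 of 9 fell in KO eTreg. H2afx, the H2A.X variant, whose transcript can also end in a stem-loop, fell by -1.72 ± 0.262 in WT and -2.37 ± 0.252 in KO, and H1f0, a linker histone linked to differentiated cells, rose in WT by 1.24 ± 0.194.

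Other features of the libraries differed between the gates as well. The ribosomal RNA precursor Rn45s took 3.19% to 4.34% of counts in effector libraries and 18.1% to 24.4% in central libraries, and it also fell in KO over WT, by -0.47 in cTreg and -0.37 in eTreg. Of 9 tested RNAs that lack poly(A) or stay in the nucleus, Rn45s included, 7 fell in WT eTreg and 5 in KO eTreg. Over all tested genes 35.8% fell in each. Among the 9, Scarna2, a small Cajal body RNA, fell by -2.09 and -2.05, while Malat1 rose by 0.61 and 0.92. The 191 genes of under 1 kb with a GC content of at least 55% had a median eTreg over cTreg log2 change of -0.93 in WT and -0.92 in KO. With an offset for length and GC content, added after seeing the data, 42 members fell and 2 rose in WT, with a median of -1.39 for members and -0.16 for the other genes, and 60 fell in KO, with a median of -2.01 for members. Of the members called in WT without the offset, 41 kept their call and 15 lost it, Hist1h2bq and Hist1h2br among those lost. The 2 that rose were Hist2h2aa1, by 1.27 ± 0.300 with the offset (adjusted p = 0.00194) against 0.40 without it (adjusted p = 0.237), and Hist2h2aa2, whose counts are nearly the same. The part that the share of such RNAs has in the members' difference between the gates was not tested.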

How the data were processed

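Bulk RNA was sequenced from 12 pools of sorted Tregs. RNA was taken up with Qiagen's RNeasy kit and made into libraries with KAPA RNA HyperPrep and RiboErase, per the labels' protocols. The authors deposited 1 table of raw counts per gene symbol; HISAT2 2.2.1, mm10 and Cell Ranger are named, per the submitters' processing notes. Which program counted, on which annotation and with what strand option is not given in the sources used here. Overlapping genes and near-identical copies are therefore uncertain. From the deposited counts, TMM-scaled CPM and edgeR's quasi-likelihood test (edgeR 4.0.16, limma 3.58.1, R 4.3.3) were computed in 1 fit of all 12 libraries with 4 group means and 8 residual degrees of freedom, after filterByExpr left 12461 of 24421 rows. Two-sided p-values were adjusted by Benjamini-Hochberg over all 12461, with calls under 0.05. DESeq2 1.42.0 and limma-voom were alternatives. Within a group, libraries differed beyond sampling noise (chi-square per degree of freedom 3.62 to 10.2), so none was counted as a duplicate. The code was tested on simulated data.

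Replicate numbers were checked as pairs. Deviations from the group means of same-numbered KO eTreg and WT eTreg libraries correlated at 0.257, 0.341 and 0.166 across genes, all above 0.1, so a block was fitted there; this pairing is read from the data alone, as no label mentions a common day or litter. For the other pairs of groups the correlations were not all above 0.1.

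Gene models and transcript sequences were read from GENCODE vM21 on GRCm38, promoters and transcript lengths from RefSeq on GRCm38.p6. Stem-loops are not annotated there. A stem-loop was an exact match to a 16-base consensus in an annotated transcript, 3' of its coding sequence. Forms outside the consensus, or beyond the annotated transcripts, would be missed. Values in each library are given for the 10 members with the highest mean CPM, the top member of each class and cluster by that mean, and up to 4 largest called rises and falls per comparison; Hist1h2bc and Hist2h2be were added after their values were seen. The members and gene lists were chosen with earlier results of these data known. The marker of the central gate is not reported here.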

Additional observations from a re-analysis of the deposited data

Results flagged for a closer look

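Cenpa, the centromeric H3 variant, was marked because its change on loss of CD25 differed between the gates. It had 22.6, 28.0 and 25.9 CPM in KO eTreg, 23.0, 25.6 and 22.3 CPM in WT eTreg, 33.9, 41.7 and 43.7 CPM in KO cTreg and 26.9, 21.9 and 21.5 CPM in WT cTreg. The KO over WT log2 change was 0.11 ± 0.111 (SE) in eTreg and 0.77 ± 0.112 in cTreg, and their difference was -0.66 ± 0.157 (edgeR's quasi-likelihood interaction test, adjusted p = 0.0262).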

How the results depend on the processing

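The 2 comparisons between the gates were the steadiest: leaving out 1 library at a time gave 47 to 58 members called in WT and 57 to 62 in KO, and 38 of 56 and 57 of 60 calls held under every alternative run. KO over WT in cTreg, with 30 called, gave 54 with limma-voom, 14 with the 6 cTreg libraries alone and 6 to 56 when 1 library was left out. KO over WT in eTreg, with 0 called, gave 8 with the replicate block in the 6 eTreg libraries and 0 without any 1 library. The interaction, with 0 called, gave 1 with the DESeq2 Wald test and 0 to 7 when 1 library was left out. The cause of these shifts was not tested. With no share of all genes beside these counts, the shifts cannot be read as particular to the members. With the replicate number as a block over all 12 libraries, 28, 0, 58, 64 and 0 members were called in KO over WT in cTreg, KO over WT in eTreg, eTreg over cTreg in WT, eTreg over cTreg in KO and the interaction. The numbers pair no groups but the effector ones. DESeq2 size factors and library size without Rn45s moved the median of all genes by 0.0200 and 0.0759 on the log2 scale. No member called in the main fit changed direction under any alternative run. The members' median log2 change in KO over WT in eTreg, where none was called, did change sign. It was 0.23 in the main fit and -0.07 without KO eTreg 2. Summing members with the same protein was not run, since it needs protein sequences that were not used here. Depth limits the rare members: 3 had a mean under 10 counts a library.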

Other observations

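Histone chaperones, the proteins that carry histones to and from DNA, were called in both directions between the gates. Of 18 tested, 5 rose and 7 fell in eTreg over cTreg in WT, and 4 rose and 10 fell in KO. Over all tested genes, 35.7% rose and 35.8% fell in WT, and 36.1% rose and 35.8% fell in KO. Asf1b, a chaperone of new H3 and H4 in dividing cells, fell by -0.72 in WT and -1.48 in KO, and Daxx, a chaperone of the H3.3 variant, fell by -0.91 in both, while its partner Atrx rose by 1.09 in both. In KO cTreg over WT cTreg, 3 rose and 0 fell, with Asf1b at 0.91, while 14.8% of all tested genes rose and 12.6% fell.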
